A study of Mus musculus with 6 samples.

Results

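Neutrophils carry their effector proteins in granules that are filled in a fixed order as the cell matures. Primary granules form in promyelocytes, secondary (specific) granules in myelocytes and metamyelocytes, and tertiary (gelatinase) granules later still. The mRNAs for each class are made while that class is being filled, so they are most abundant in immature cells of the bone marrow or spleen and decline in the mature cell, although the proteins stay. Secondary granules hold lactoferrin, the cathelicidin, the collagenase Mmp8 and membrane proteins that move to the cell surface, and tertiary granules are rich in the gelatinase Mmp9.

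The 10 genes described here are secondary and tertiary granule genes: Ltf, Camp, Ngp, Mmp8, Mmp9, Cd177, Itgb2l, Lyz2, Pglyrp1 and Olfm4. They were taken by symbol from a table of 43432 genes, and all 10 were found and passed the filter on low values. The list was drawn up with earlier results of these data known, so shares of all genes given beside it are descriptions. Bulk RNA was sequenced from CD11b+ spleen cells of 6 C57BL/6J mice that were Rag1 KO, sorted on day 8 after cell transfer. Rag1 KO mice make no T or B cells of their own. CD11b, the integrin chain used for sorting, is carried by neutrophils, monocytes, macrophages, some dendritic cells and basophils. All 6 mice received 2D2 CD4+ T cells, which bear a transgenic receptor for myelin oligodendrocyte glycoprotein (MOG), and B cells grown in the iGB culture and loaded with MOG protein. In the WT iGB6 group (n = 3 mice) the B cells were wild type and were transduced with a retroviral pMSCV vector expressing Il6 together with eGFP. For the other group, IgHMOG iGBGFP (n = 3 mice), the B cells were of the IgHMOG genotype and carried the empty vector. The B cell genotype and the vector thus differ together between the groups and cannot be told apart. In each group replicate 1 was female and the other two replicates were male. The labels used here give no age.

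Libraries held 5196339 to 6611212 reads in IgHMOG iGBGFP and 5955142 to 7564254 in WT iGB6. Values below are normalized counts, which are reads divided by the authors' size factor for the library. S100a8 and S100a9, from a list of 12 mature neutrophil genes, were among the most abundant genes (83889 to 229532 and 46492 to 121294 normalized counts). The 12 together were at 3.67 to 5.73% of normalized counts in IgHMOG iGBGFP and 4.27 to 5.51% in WT iGB6. For 13 monocyte and macrophage markers together, the shares were 0.346 to 0.861% in IgHMOG iGBGFP and 0.253 to 0.551% in WT iGB6. Of 6 eosinophil markers, 4 (Epx, Prg2, Ear6 and Il5ra) had no read in at least 1 library. Siglecf (76.5 to 186 normalized counts) and Ccr3 (77.6 to 392) were detected in all 6. Summed, the 6 eosinophil markers were at 329 to 414 normalized counts in IgHMOG iGBGFP and 161 to 518 in WT iGB6. In bulk RNA of a sorted mixture, fewer cells of a type and less RNA per cell cannot be told apart.

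The 10 genes made up a large part of each library. Together they held 23.1, 14.1 and 12.8% of all normalized counts in IgHMOG iGBGFP replicates 1, 2 and 3, and 26.9, 19.7 and 27.3% in WT iGB6 replicates 1, 2 and 3. The group means were 16.7 ± 5.61% and 24.6 ± 4.28% (SD, n = 3 per group). IgHMOG iGBGFP replicate 1 lay above WT iGB6 replicate 2, so the groups overlapped. Ngp was the most abundant gene of the whole table and Ltf and Lyz2 were the next, and 6 of the 10 were among the 20 most abundant genes. Ngp alone took 40.9 ± 4.92% of the counts of the 10 genes in IgHMOG iGBGFP and 43.6 ± 1.85% in WT iGB6. Without Lyz2, which monocytes and macrophages also make in quantity, the other 9 genes held 13.6 ± 5.69% and 21.1 ± 3.87% of normalized counts.

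**Figure D1:**
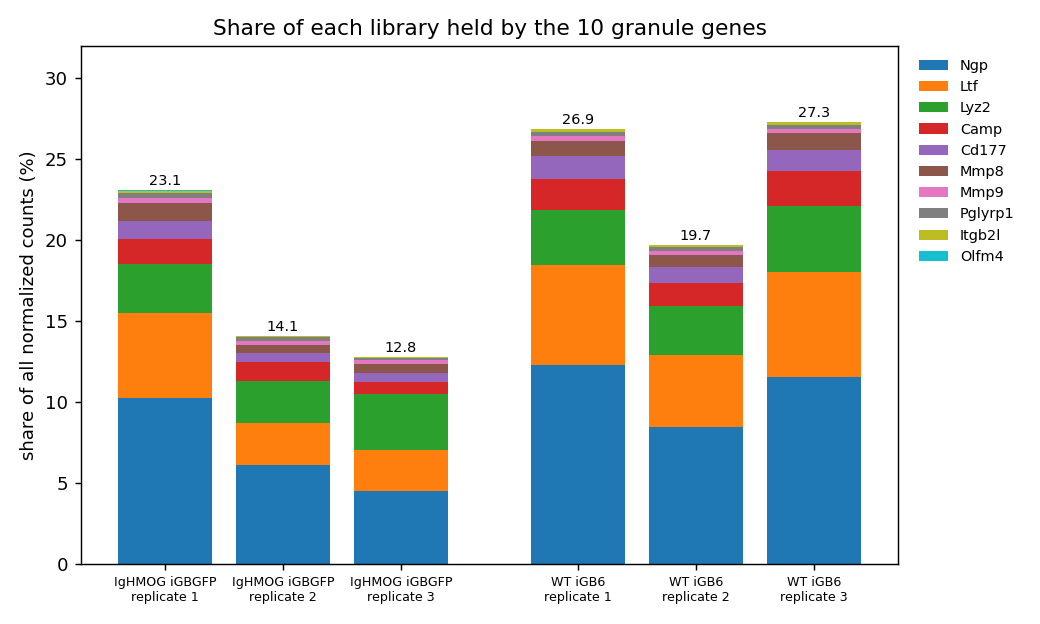
Share of all normalized counts (percent, y axis) held by the 10 granule genes in each of the 6 libraries (x axis), stacked by gene. Totals run from 12.8 to 23.1% in IgHMOG iGBGFP and from 19.7 to 27.3% in WT iGB6, and Ngp, Ltf and Lyz2 make up most of each bar.

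In normalized counts every one of the 10 genes had a higher mean in WT iGB6, as did 51.1% of all genes tested, but only Itgb2l passed the test. As shares of the library, the means of Mmp9 (0.276% in IgHMOG iGBGFP and 0.257% in WT iGB6) and Olfm4 (0.0233% and 0.0209%) were lower in WT iGB6. In limma's fit over 9923 genes (group and sex as terms, Benjamini-Hochberg adjusted p under 0.05), 1 of 10 was called higher and 0 lower, where 2.75% of all genes tested were called higher and 3.37% lower. At an unadjusted p under 0.05, limma had 4 of the 10, all higher in WT iGB6, beside 12.3% of all genes tested. The median log2 fold change between the groups (WT iGB6 over IgHMOG iGBGFP) was 0.78 for the 10 genes and 0.02 for all genes tested. The median of the 10 was 0.45 without WT iGB6 replicate 3 and 1.12 when either female was left out, as in males alone. With edgeR's quasi-likelihood test on the recovered reads, 1 of 10 was called higher, again Itgb2l, beside 2.56% of all genes. DESeq2 on the same reads called 5 of 10 higher (Ltf, Camp, Ngp, Cd177 and Itgb2l) beside 3.94% of all genes, and the authors' deposited table called these 5 too, beside 3.89%. The fold changes lay close together in these tests, from 1.03 to 1.16 (log2) for Itgb2l and from 0.93 to 1.04 for Ltf.

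**Figure D2:**
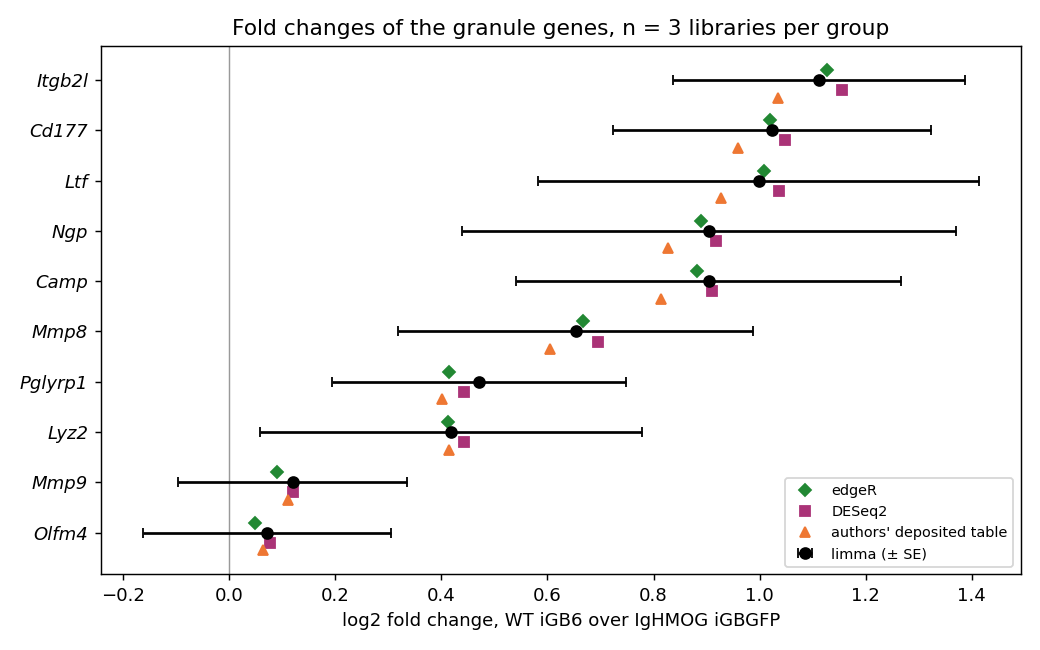
Log2 fold change between the groups (WT iGB6 over IgHMOG iGBGFP) (x axis) for each of the 10 genes (y axis), from limma with its standard error (black), edgeR, DESeq2 and the authors' deposited table, n = 3 libraries per group. Itgb2l (1.11), Cd177 (1.02) and Ltf (1.00) have the highest limma values, and Mmp9 (0.12) and Olfm4 (0.07) lie near 0.

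The promoters of several of these genes are shown here as a description. Most of the genes moved in parallel from library to library, and any part of the promoters in this was not tested. RefSeq promoter windows on GRCm38.p6, from 250 bases before to 50 after the start site, were found for 9 of the 10 genes and searched on both strands. The searched letters were TTGCNNAA for C/EBP factors, which drive granule genes, TTCNNNGAA for STAT factors, which act downstream of the IL-6 receptor, and GAGGAA for ETS factors such as PU.1. A C/EBP match was present in 3 of 9 windows (Ltf, Ngp and Mmp8) and in 10.8% of all 32851 windows. An ETS match was present in 6 of 9 (Pglyrp1, Cd177, Mmp8, Ltf, Olfm4 and Itgb2l) and in 28.3% of all. The STAT letters were found in 0 of 9 and in 8.30% of all. Matches of different motifs did not overlap (0 cases). For the 3 genes with a C/EBP match and for Itgb2l, 120 bases are given 5′ to 3′ on the gene's strand, with matches in capitals. Each stretch ends just before the RefSeq start site or, where GENCODE M21 places the first exon farther upstream, just before that exon, which is 61 bases before the RefSeq start for Ngp, 21 for Ltf and 5 for Itgb2l. Their positions are chr9:111019151-111019270 (Ltf, plus strand), chr9:110419627-110419746 (Ngp, plus strand), chr9:7558309-7558428 (Mmp8, plus strand) and chr16:96443620-96443739 (Itgb2l, minus strand).
Ltf: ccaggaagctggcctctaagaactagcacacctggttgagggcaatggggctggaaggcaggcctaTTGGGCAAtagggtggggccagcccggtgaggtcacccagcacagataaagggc
Ngp: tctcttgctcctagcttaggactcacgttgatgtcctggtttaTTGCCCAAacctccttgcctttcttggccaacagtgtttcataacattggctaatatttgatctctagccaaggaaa
Mmp8: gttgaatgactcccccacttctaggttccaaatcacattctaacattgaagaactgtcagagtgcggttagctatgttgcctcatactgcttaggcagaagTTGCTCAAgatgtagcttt
Itgb2l: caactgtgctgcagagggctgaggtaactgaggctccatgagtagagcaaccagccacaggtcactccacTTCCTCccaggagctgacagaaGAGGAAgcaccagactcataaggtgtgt
Counted from the RefSeq start, the first base of the match is at -75 in Ltf, -138 in Ngp and -19 in Mmp8. Ngp has another C/EBP match at -11, which lies in the GENCODE first exon and is not shown. The capitals in Itgb2l are 2 ETS matches, 1 on each strand, at -55 and -33. These are letter matches and not measured sites of binding.

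Among the antimicrobial proteins, Ltf encodes lactoferrin, an iron-binding protein of secondary granules (ENSMUSG00000032496, protein-coding, GRCm38 chromosome 9, 111019271 to 111042767). Its normalized counts were 350621, 149501 and 130639 in IgHMOG iGBGFP replicates 1, 2 and 3 and 436358, 267057 and 468112 in WT iGB6 replicates 1, 2 and 3. IgHMOG iGBGFP replicate 1 lay between the WT iGB6 libraries, and the other two of its group lay below all of them. Group means were 210254 ± 121927 and 390509 ± 108085 (SD over 3 libraries), for a log2 fold change of 1.00 (SE 0.41, limma adjusted p = 0.173, DESeq2 adjusted p = 0.00383).

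Camp encodes the mouse cathelicidin, the precursor of the antimicrobial peptide CRAMP (chromosome 9, 109847379 to 109849617, minus strand). It was at 105556, 65996 and 38457 normalized counts in IgHMOG iGBGFP and at 135228, 85220 and 152263 in WT iGB6, in replicate order. The order of the libraries was that of Ltf in WT iGB6, with replicate 2 the lowest. Its log2 fold change was 0.90 (SE 0.36, limma adjusted p = 0.161, DESeq2 adjusted p = 0.02), and 0.59 when WT iGB6 replicate 3 was left out.

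Ngp, neutrophilic granule protein, is a relative of the cathelicidins and lies on the same chromosome (110419747 to 110423012). It had 678567, 346986 and 234302 normalized counts in IgHMOG iGBGFP and 867273, 503188 and 829544 in WT iGB6. Its means were 419952 ± 230946 and 733335 ± 200204, with a log2 fold change of 0.90 (SE 0.47, limma adjusted p = 0.266, DESeq2 adjusted p = 0.0106). WT iGB6 replicate 2 was again below IgHMOG iGBGFP replicate 1.

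Lyz2 encodes lysozyme M, which cleaves bacterial cell walls and is made by neutrophils, monocytes and macrophages (chromosome 10, 117277331 to 117282321). It was at 199430, 149239 and 180081 normalized counts in IgHMOG iGBGFP and 239314, 180958 and 295114 in WT iGB6. Its log2 fold change was 0.42 (SE 0.36, limma adjusted p = 0.514), and 0.19 when WT iGB6 replicate 3 was left out. Unlike the other antimicrobial genes it did not have its lowest value in IgHMOG iGBGFP replicate 3. Lyz2 has a near-identical neighbour, Lyz1, whose transcript matches it at 96.0% of 1262 aligned bases with identical runs of up to 118 bases, so some reads could be split between them. Lyz1 itself was at 85.25 to 238 normalized counts in the 6 libraries (log2 fold change -0.25, SE 0.35, limma adjusted p = 0.707).

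Pglyrp1, a peptidoglycan recognition protein that kills bacteria (chromosome 7, 18871331 to 18890459), had 19527, 13878 and 7604 normalized counts in IgHMOG iGBGFP and 20552, 13843 and 19302 in WT iGB6. The groups overlapped in both directions, since WT iGB6 replicate 2 lay just below IgHMOG iGBGFP replicate 2. The log2 fold change was 0.47 (SE 0.28, limma adjusted p = 0.331), with 0.17 when IgHMOG iGBGFP replicate 3 was left out and 0.28 when WT iGB6 replicate 3 was.

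Of the matrix proteases, Mmp8, the neutrophil collagenase of secondary granules (chromosome 9, 7558456 to 7568485), was at 75261, 26395 and 27578 normalized counts in IgHMOG iGBGFP and 66749, 42724 and 74669 in WT iGB6. The highest library of the 6 was thus IgHMOG iGBGFP replicate 1, and the lowest were the other two of that group. Its log2 fold change was 0.65 (SE 0.33, limma adjusted p = 0.263). Without WT iGB6 replicate 3 it was 0.31, and without either female 1.07, as in males alone. Mmp9, gelatinase B of tertiary granules (chromosome 2, 164940780 to 164955850), was at 21906, 14884 and 12256 and at 19801, 14640 and 17679. Its libraries interleaved, with means of 16349 ± 4989 and 17373 ± 2594 and a log2 fold change of 0.12 (SE 0.22, limma adjusted p = 0.775).

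Of the membrane proteins, Itgb2l, a beta integrin chain gene related to Itgb2 (ENSMUSG00000000157, chromosome 16, 96422288 to 96443619, minus strand), rose. Its normalized counts were 9221, 3512 and 3602 in IgHMOG iGBGFP and 12515, 7241 and 13003 in WT iGB6. Both males of IgHMOG iGBGFP were below every WT iGB6 library, and its female lay above WT iGB6 replicate 2. Group means were 5445 ± 3270 and 10920 ± 3195 (SD over 3 libraries), for a log2 fold change of 1.11 (SE 0.27, limma adjusted p = 0.043, and 0.049 with edgeR), a 2.16-fold difference. It did not pass without a sex term (adjusted p = 0.171), in males alone (adjusted p = 0.0524), when library totals without the 10 genes set the scale (adjusted p = 0.0559) and without any 1 of IgHMOG iGBGFP replicate 1 (0.0527), replicate 2 (0.234), replicate 3 (0.154) or WT iGB6 replicate 1 (0.055). With sex as a term, a lone female does not enter the group difference. The fits without either female and that in males alone are thus the same contrast (log2 fold change 1.45 in each). Over 16 alternative fits, with these counted separately, the adjusted p ran from 9.58e-04 to 0.234 and passed in 9. The log2 fold change stayed between 0.78 and 1.45. The Itgb2l and Itgb2 transcripts match at 74.1% of 2138 aligned bases, with identical runs of at most 25 bases.

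Cd177, a surface glycoprotein of neutrophils (chromosome 7, 24743983 to 24760311, minus strand), had 71149, 32070 and 29177 normalized counts in IgHMOG iGBGFP and 100020, 59700 and 93506 in WT iGB6. As for Itgb2l, both males of IgHMOG iGBGFP were below every WT iGB6 library and the female lay above WT iGB6 replicate 2. Cd177 had a log2 fold change of 1.02 (SE 0.30). It missed the threshold in limma (adjusted p = 0.0703) and edgeR (adjusted p = 0.0614), and passed in DESeq2 (adjusted p = 8.6e-04) and in the authors' deposited table (adjusted p = 0.00103).

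Olfm4, olfactomedin 4, is a glycoprotein found in the secondary granules of a subset of neutrophils (chromosome 14, 79984081 to 80023139). It was at 2020, 1092 and 1063 normalized counts in IgHMOG iGBGFP and 1243, 1369 and 1596 in WT iGB6. WT iGB6 replicate 1, the female, had the lowest value of its group, the reverse of its place for Ngp and Cd177. The log2 fold change was 0.07 (SE 0.23, limma adjusted p = 0.883). It was the least abundant of the 10, at rank 602 by mean over all genes.

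**Figure D3:**
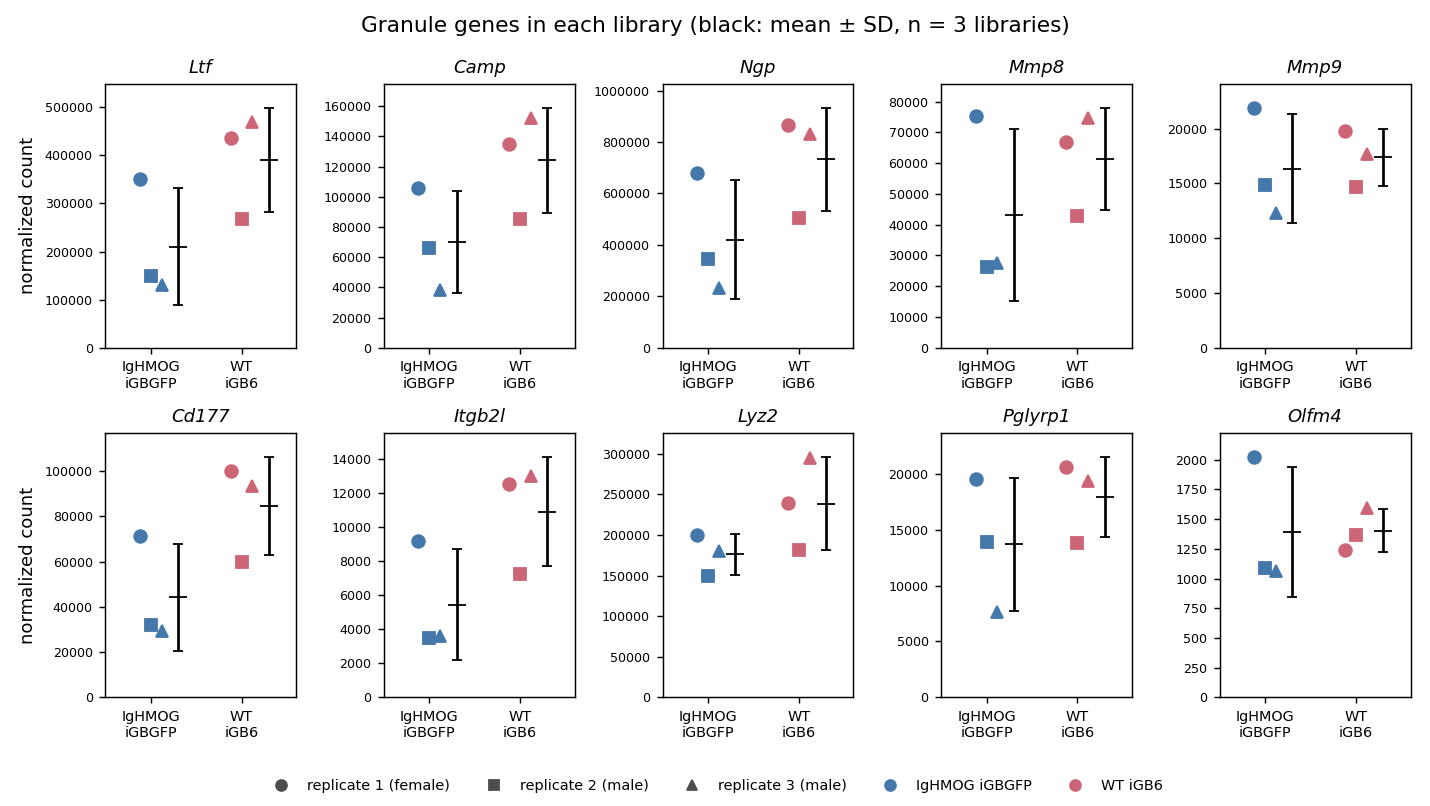
Normalized count (y axis, linear from 0) of each of the 10 genes in the 3 IgHMOG iGBGFP and 3 WT iGB6 libraries (x axis), with symbols for replicates 1 (female), 2 and 3 (males) and black bars for the mean ± SD. IgHMOG iGBGFP replicate 1 is the highest of its group for all 10 genes, WT iGB6 replicate 2 is the lowest of its group for 9 of 10, and the groups overlap for every gene.

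Per kilobase of annotated exon, which adjusts only roughly for the length of different genes, Ngp stood far above the others. The length counts the exons of all annotated transcripts. For Itgb2l it was 4324 bases, where its longest protein-coding transcript has 2806. The mean normalized count per kilobase was 343700 in IgHMOG iGBGFP and 600100 in WT iGB6 for Ngp, and 92350 and 163900 for Camp. For Lyz2 the same level was 133900 and 181200, and for Ltf 60940 and 113200. The membrane and protease genes were lower, at 15540 and 29720 for Cd177, 17760 and 25310 for Mmp8 and 4620 and 4909 for Mmp9. Pglyrp1 was at 7441 and 9744, Itgb2l at 1259 and 2525, and Olfm4 at 469.8 and 473.5. The order of the genes was the same in both groups except that Mmp8 stood above Cd177 in IgHMOG iGBGFP and below it in WT iGB6.

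The spread within groups was wide and followed the same libraries for most of the genes. In IgHMOG iGBGFP the coefficient of variation ran from 14.4% for Lyz2 to 64.7% for Mmp8, and 9 of 10 lay above 18.3%, the median over the 824 genes with a mean of at least 1000. In WT iGB6 it ran from 12.8% for Olfm4 to 29.3% for Itgb2l, with 9 of 10 above the corresponding median of 13.8%. The highest library was 2.90 times the lowest for Ngp and 2.68 times for Ltf in IgHMOG iGBGFP, against 1.72 and 1.75 times in WT iGB6. The coefficient was higher in IgHMOG iGBGFP for 9 of 10 genes, as it was for 64.9% of the 824, and with 3 libraries per group this was not tested. Each gene was set against the mean of the other 9 on a standardized log2 scale over the 6 libraries. Pearson's r was 0.987 for Ltf, 0.981 for Ngp, 0.975 for Mmp8, 0.968 for both Cd177 and Itgb2l and 0.954 for Camp. It was lower for Pglyrp1 (0.895), Mmp9 (0.855), Lyz2 (0.759) and Olfm4 (0.701). The 6 points share libraries and scale factors, and these values are descriptions.

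The males and the females were also set side by side. In the 2 males per group, both WT iGB6 libraries were above both IgHMOG iGBGFP libraries for 8 of 10 genes (all but Mmp9 and Pglyrp1), beside 26.5% of all genes tested. The male difference on the log2 scale was 1.34 for Ltf, 1.18 for Ngp, 1.45 for Itgb2l and 1.07 for Mmp8. Between the females, 1 per group, it was 0.32 for Ltf, 0.35 for Ngp, 0.44 for Itgb2l and -0.17 for Mmp8, and Olfm4 stood at -0.70 against 0.46 in males. The difference between the sexes, tested as an interaction in limma, passed for 0 of 10 genes (adjusted p = 0.9996 for each, with an unadjusted p under 0.05 for Olfm4 alone, at 0.0185). Replicate number 1 and female sex coincide, so sex and anything else that the first replicates share cannot be told apart. For 6 of 10 genes (Ltf, Camp, Ngp, Cd177, Itgb2l and Lyz2) the WT iGB6 library was above the IgHMOG iGBGFP library of the same number in all 3 cases, beside 25.2% of all genes. Over all 6 libraries, 0 of 10 genes had every WT iGB6 value above every IgHMOG iGBGFP value, beside 12.2% of all genes.

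Each gene was also set against the tertiary granule gene Mmp9 in the same library. This ratio does not depend on the size factors, and it was chosen after the values were seen. The log2 ratio of Ltf to Mmp9 was 4.001, 3.33 and 3.41 in IgHMOG iGBGFP replicates 1, 2 and 3 and 4.46, 4.19 and 4.73 in WT iGB6. For Itgb2l it was -1.25, -2.08 and -1.77 and then -0.66, -1.02 and -0.44. For Ngp it was 4.95, 4.54 and 4.26 and then 5.45, 5.10 and 5.55. In 6 of 9 genes (Ltf, Camp, Ngp, Cd177, Itgb2l and Pglyrp1) every WT iGB6 ratio was above every IgHMOG iGBGFP ratio, beside 7.50% of all other genes tested against Mmp9. Mmp9 itself differed little between the groups (log2 fold change 0.12) and followed the other genes from library to library (r = 0.855). Dividing by it takes out part of the spread that most of these genes share within groups, so the 7.50% is not a matched background. The ratios were not tested in a model, and an exact two-sided permutation test of 3 against 3 libraries cannot give a p below 0.1. The mean log2 difference was 0.99 for Itgb2l, 0.90 for Cd177, 0.88 for Ltf, 0.79 for Ngp, 0.78 for Camp and 0.35 for Pglyrp1. The ratios of Mmp8 (0.53), Lyz2 (0.30) and Olfm4 (-0.05) overlapped between the groups.

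**Figure D4:**
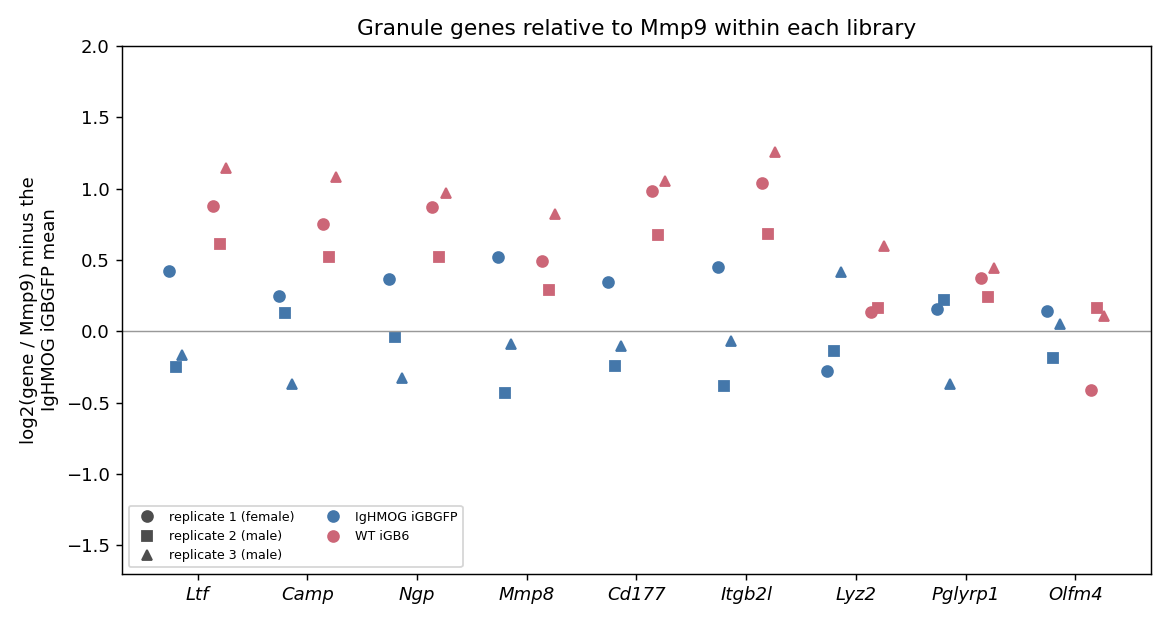
Log2 ratio of each gene to Mmp9 in the same library, minus the IgHMOG iGBGFP mean of that ratio (y axis), for 9 genes (x axis) in 6 libraries. All 3 WT iGB6 points lie above all 3 IgHMOG iGBGFP points for 6 of 9 genes, and the points interleave for Mmp8, Lyz2 and Olfm4.

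Other genes of secondary and tertiary granules were read from a list. Of 20 listed, 19 were tested, 2 rose, 0 fell and 17 did not pass in limma, with a median log2 fold change of 0.42. Orm1, an acute-phase orosomucoid that neutrophil precursors also make, rose, with means of 274 ± 139 in IgHMOG iGBGFP and 568 ± 144 in WT iGB6 (log2 difference 1.14, SE 0.27, adjusted p = 0.0397). Ceacam1, a cell adhesion molecule, rose from 3422 ± 1113 to 6905 ± 1809 (1.03, SE 0.24, adjusted p = 0.0399), with no overlap of the groups. Both calls were lost without the sex term (adjusted p = 0.145 and 0.125) and in males alone (0.0538 and 0.0747). Anxa1, the most abundant of the list, was at 0.72 (SE 0.34, adjusted p = 0.225), Cybb, the catalytic chain of the phagocyte oxidase, at 0.87 (SE 0.30, adjusted p = 0.106), and Lcn2, lipocalin 2 of secondary granules and named after its values were seen, at 0.78 (SE 0.31, adjusted p = 0.154). Slpi, a protease inhibitor, was at -0.83 (SE 0.25, adjusted p = 0.0757). Ptx3 was too low to test.

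Primary granule and promyelocyte genes, which come earlier in the same lineage, were read in the same way. Of 11 listed, 10 were tested, 8 rose, 0 fell and 2 did not pass, and the median log2 fold change was 2.04 against 0.78 for the 10 secondary and tertiary granule genes. Fcnb, a ficolin, had the smallest p of the list (log2 fold change 1.88, SE 0.19, limma adjusted p = 0.00157), before Ms4a3 (2.21, SE 0.26, adjusted p = 0.00419), Mpo (3.39, SE 0.44, adjusted p = 0.00622) and Prss57 (1.66, SE 0.27, adjusted p = 0.0123). The other four were the proteases Ctsg (2.34), Prtn3 (2.42) and Elane (2.61), with SEs of 0.41 to 0.46, and Serpinb1a, a protease inhibitor and the most abundant of the list (1.08, SE 0.26, adjusted p = 0.0392). None of the 8 passed without the sex term (adjusted p = 0.0887 to 0.145), and Elane (0.0566), Prtn3 (0.0547), Prss57 (0.0514) and Serpinb1a (0.0538) did not pass in males alone. Replicate 3 was the lowest WT iGB6 library for Fcnb, Ms4a3, Mpo, Prss57, Ctsg, Prtn3 and Elane. Mpo, for one, was at 8033, 6272 and 1696 normalized counts in WT iGB6 replicates 1, 2 and 3. For Serpinb1a, as for 6 of the 10 secondary and tertiary granule genes, replicate 3 was the highest WT iGB6 library. The summed counts of the 11 genes were small beside those of the 10, at 0.265 to 0.303% of the library in IgHMOG iGBGFP and 0.432 to 0.633% in WT iGB6. Ctsc (0.36, SE 0.23, adjusted p = 0.371) and Cd63 (0.01, SE 0.22, adjusted p = 0.989) did not pass, and Bpi was too low to test.

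Among 9 genes that control granulocyte development, 7 were tested, 1 rose and 6 did not pass, with a median log2 fold change of -0.60. Cebpe, the C/EBP factor required for secondary granule genes, rose from 438 ± 269 to 885 ± 324 normalized counts (1.14, SE 0.29, limma adjusted p = 0.0467), and its groups overlapped. With edgeR (adjusted p = 0.0542), no sex term (0.208) or males alone (0.0838) it did not pass, and it passed in 7 of 16 alternative fits. Cebpa, a factor of early granulocyte commitment, was at -1.23 (SE 0.36, adjusted p = 0.0715), Spi1, which encodes PU.1, at -0.58 (SE 0.18, adjusted p = 0.0801), and Csf3r, the receptor for the granulocyte growth factor and the most abundant of the list, at -1.12 (SE 0.33, adjusted p = 0.072).

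**Figure D5:**
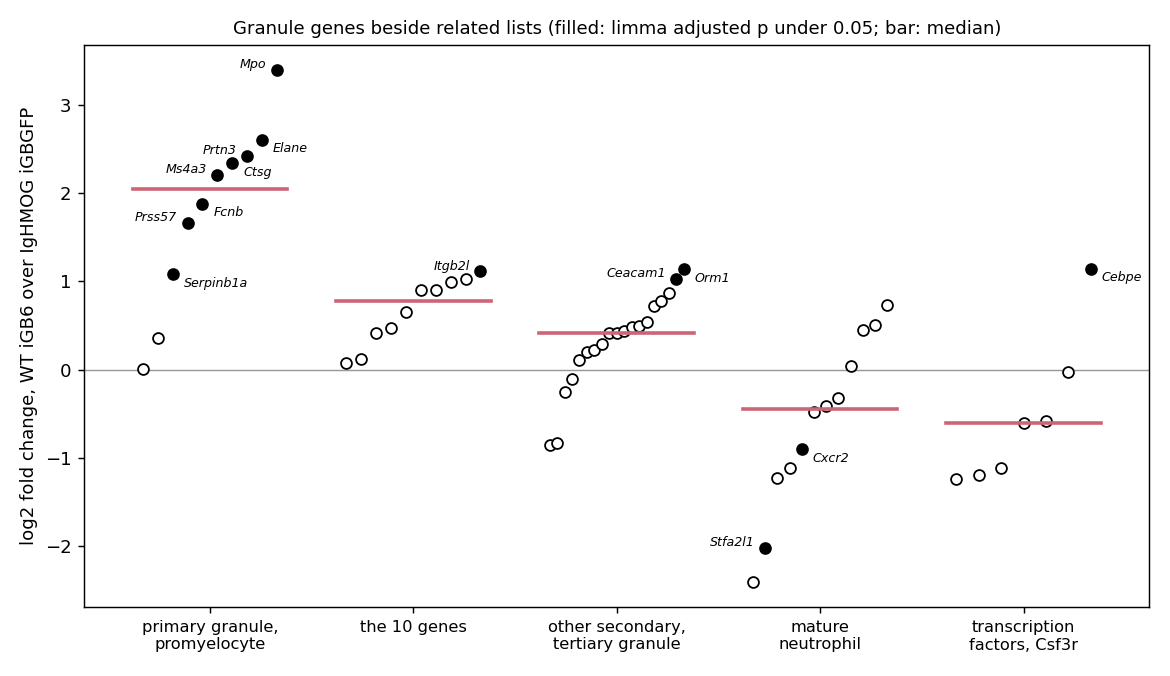
Log2 fold change between the groups (WT iGB6 over IgHMOG iGBGFP) in limma (y axis) for each tested gene of 5 lists (x axis), filled where the adjusted p is under 0.05, with a bar at each list's median, n = 3 libraries per group. Medians fall from 2.04 for primary granule genes to 0.78 for the 10 genes, 0.42 for other secondary and tertiary granule genes, -0.45 for mature neutrophil genes and -0.60 for the transcription factors and Csf3r. Csf3r is also in the mature neutrophil list and counts in both medians.

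Markers of later neutrophils came next. Of 12 mature neutrophil genes, which include Csf3r again, 0 rose, 2 fell and 10 did not pass in limma, with a median of -0.45. Cxcr2, the chemokine receptor for release into blood, fell (-0.90, SE 0.21, adjusted p = 0.036), as did the stefin Stfa2l1 (-2.02, SE 0.50, adjusted p = 0.0442), which has close copies and is uncertain. Neither passed without the sex term (adjusted p = 0.121 and 0.122). Il1b was at -2.40 (SE 0.69, adjusted p = 0.0649), and S100a8, the most abundant of the list, was at 0.51 (SE 0.38, adjusted p = 0.445). All 6 genes of dividing cells rose, with a median of 1.25, such as Rrm2 of DNA synthesis (1.49, SE 0.18, adjusted p = 0.00471), and none of these 6 passed without the sex term. Summed, they were at 1877 to 2866 normalized counts in IgHMOG iGBGFP and 3729 to 7006 in WT iGB6.

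Some markers of other cells and genes that cell isolation can induce moved with the groups as well. What induced the latter in these samples was not tested. Of 10 genes that cell isolation is known to induce, 9 were tested and 7 fell (Fos, Fosb, Jun, Junb, Atf3, Dusp1 and Hspa1a), with summed levels of 16070 to 26390 normalized counts in IgHMOG iGBGFP and 4217 to 11740 in WT iGB6. Fos did not pass in edgeR (adjusted p = 0.0516), DESeq2 (0.0942) or the authors' deposited table (0.0997), nor Dusp1 in DESeq2 (0.0911) or the authors' deposited table (0.0967). Of 6 basophil markers 4 fell (sums of 1568 to 6838 and 407 to 1530), and of 13 monocyte and macrophage markers 3 fell (Fn1, Cx3cr1 and Ms4a6c; sums of 22980 to 44710 and 17890 to 32900). Of 6 dendritic cell markers, 4 were tested and 3 fell, with sums of 352 to 1224 and 28.5 to 178. Markers of erythroid cells were at sums of 654 to 2722 and 1678 to 3977, and 0 of 5 passed. T cell markers summed to 97.5 to 150.4 and 72.6 to 99.0, with Cd3e and Trac at 0 in at least 1 library, and B and plasma cell markers to 74.7 to 192 and 53.4 to 93.9. Of 4 natural killer cell markers, 1 rose, Nkg7 (1.36, SE 0.22, adjusted p = 0.0129), and the sums were 422 to 929 and 540 to 1863. Of all the genes called in these lists, only the basophil gene Ms4a2 kept its call without the sex term (adjusted p = 0.0381). The part that any of these had in the values of the 10 granule genes was not tested.

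The genes whose levels followed the 10 most closely were sought among 5148 other protein-coding genes with a mean of at least 100, by Pearson's r of log2 values with the mean standardized profile of the 10 over the 6 libraries. The first 5 were Ifitm6 (r = 0.996), Stxbp5 (0.994), Olfml2b (0.994), Rab27a (0.994) and Cystm1 (0.993). As the highest of 5148 values over only 6 points, these r are selected extremes. They are descriptions, and a shared function or control was not tested. Ifitm6 was at 18348, 9557 and 7514 normalized counts in IgHMOG iGBGFP replicates 1, 2 and 3 and 17546, 12021 and 19725 in WT iGB6, with IgHMOG iGBGFP replicate 1 among the high libraries as for Ltf and Ngp. Rab27a encodes a small GTPase that takes part in granule release. None of the 5 passed in limma, with log2 fold changes from 0.28 for Rab27a (adjusted p = 0.366) to 1.05 for Olfml2b (adjusted p = 0.0561).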

How the data were processed

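The deposited signal values are normalized counts, which the authors made by dividing featureCounts read counts by 1 size factor per library, per the file headers and the values. Dividing each column by its step gave whole reads for 100% of values (tolerance 0.001). The deposited second table holds the authors' log2 fold change, its standard error and a Wald statistic (a score), and p-values, without a header. The column order was read from the values. Both sets of deposited values are named as normalized to gender, and sex was made a term here for that reason. No source used here states the authors' model formula. The submitters' processing notes name STAR 2.7.10b, featureCounts 2.0.3 and DESeq2 2.11.40.7 with GRCm38 and mm10. Per the labels, cDNA was amplified by PCR and no molecular identifiers are described, and strand is not stated, so overlapping genes cannot be told apart.

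Symbols, coordinates and exon lengths came from GENCODE M21 on GRCm38 (42548 of 43432 identifiers matched). Genes were tested with limma 3.58.1 (R 4.3.3) on log2(normalized count + 1) for 9923 genes with a mean of at least 10, two-sided, modelling group and sex, at a Benjamini-Hochberg adjusted p of 0.05. Fold changes are on that scale, which understates low genes. The test's code was run on simulated data with independent genes, larger changes than those of the 10 and no sex effect. Those settings differ from these data, so the run does not show how the test performs here. edgeR 4.0.16 and DESeq2 1.42.0 on recovered reads were alternatives, as were another pseudocount (5), no filter, other scalings, no sex term, a replicate block, males alone and leaving out each library. The labels give each library its own mouse.

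The 10 genes and the lists were chosen with earlier results of these data known. All 10 are named. From each related list the called genes, up to 4 with the smallest p and the most abundant were to be named; for lists of other cells counts and sums stand in place of most names. The genes most like the 10 were the 5 with the highest r.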

Additional observations from a re-analysis of the deposited data

How the results depend on the processing

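The direction of 9 of the 10 genes was the same in all 16 alternative fits, but several of these agreements were fixed by the design. Removing the filter does not change a gene's fold change, and with the sexes balanced neither does the sex term or the replicate block. Leaving out either female returns the fold change of males alone. Olfm4 turned to -0.03, -0.05 and -0.10 (log2) without IgHMOG iGBGFP replicate 2, the same group's replicate 3 and WT iGB6 replicate 3. It ran from -0.103 to 0.456 when single libraries were left out. The count of members called higher (1) was 0 with totals that leave out the 10 genes, without the sex term and in males alone, 5 with DESeq2 and in the authors' table, and 0 to 1 when 1 library was left out. All genes called, 273 higher and 334 lower, became 459 and 620 with no filter, 130 and 206 with totals that leave out the 10 genes, 6 and 4 without the sex term, 61 and 72 in males alone, 415 higher with DESeq2 and 410 in the authors' table, and 3 to 410 higher and 1 to 680 lower when 1 library was left out. The last range had its lowest counts without IgHMOG iGBGFP replicate 2 and its highest without WT iGB6 replicate 2. The cause of these moves was not tested. With the replicate block, 435 rose and 566 fell, and Itgb2l kept its call (adjusted p = 0.0236). Libraries with the same number deviated together in replicates 1 (correlation 0.48) and 2 (0.35) but not 3 (0.04). Between libraries of different number the correlation ran from -0.51 to 0.29. With 3 libraries per group these values constrain each other and cannot decide whether the numbers pair the samples. In the labels, mice with the same replicate number have close mouse numbers. The main fit did not assume pairs. The totals that leave out the 10 genes shifted all genes by -0.06.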
